A study of Homo sapiens with 12 samples.

Results

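The genes described here are 38 genes of G2 and mitosis, among 58735 genes in the count table of an RNA-seq study of the UFMylation pathway. They were taken by name from a list of genes whose products drive cells from G2 through chromosome segregation to cytokinesis, and all 38 were found and passed the filter on low counts in every comparison. They comprise 6 genes of the cyclin-CDK engine, 3 mitotic kinases, 2 genes of the anaphase-promoting complex pathway, 5 of the spindle checkpoint, 5 of chromosome structure, 3 of the centromere and kinetochore, 7 spindle motors and assembly factors, 6 genes of the midzone and cytokinesis, and 1 chromosome passenger.

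The cells were MDA-MB-231, a long-established triple-negative breast cancer line of mesenchymal type, and total RNA was sequenced in 4 groups of 3 libraries. The sgUFL1 cells carried a guide RNA against UFL1, the ligase that attaches the small protein UFM1 to its targets, and the sgUFM1 cells a guide against UFM1 itself. Each guide had its own control-guide libraries, sgCtrl_to_sgUFL1 and sgCtrl_to_sgUFM1, called the controls for sgUFL1 and the controls for sgUFM1 below. The labels name no clones, pools or separate cultures. The p-values therefore reflect library-to-library spread within a group, and that spread may be technical only.

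A pair of groups is exchanged between the table of counts and that of FPKM values, which are scaled for gene length and library size. Over 13300 genes, 6 FPKM columns tracked the count column with their own name and 6 tracked a column named for a different group. Set 1 denotes the 3 libraries named sgUFL1 with the counts but as controls for sgUFM1 with the FPKM values. Set 2 denotes the 3 named as controls for sgUFM1 with the counts but sgUFL1 with the FPKM values. The names of the remaining 6 libraries, sgUFM1 and the controls for sgUFL1, match. Every comparison with set 1 or set 2 therefore has a meaning that depends on the naming. Both meanings are given where a comparison is introduced, but not every comparison is printed for each gene.

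Entry into mitosis is driven by CDK1 bound to cyclins A and B. Exit is driven by the anaphase-promoting complex, which marks cyclin B for destruction once the spindle checkpoint is satisfied. Transcripts of most of these genes are low in G1 and accumulate in G2, under the MuvB complex with B-MYB and FOXM1, which acts through a promoter element called the cell cycle homology region, often near CCAAT boxes bound by NF-Y. In bulk RNA from a dividing line their level follows both the share of cells in G2 and mitosis and the transcript content per cell, and these cannot be told apart here.

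The libraries held 15342793 to 18033331 counts each. Levels are given as CPM, counts divided by library size on a common scale, with TMM factors over all 12 libraries. The targeted gene UFL1 averaged 12.5 ± 0.896 CPM (SD, n = 3) in set 2, 18 ± 1.27 in set 1, 23.1 ± 2.32 in sgUFM1 and 24.8 ± 5.25 in the controls for sgUFL1. UFM1 averaged 53.8 ± 2.18, 53.5 ± 3.81, 38.7 ± 1.35 and 65.5 ± 5.76 CPM in that order. UFL1 was thus lowest in set 2 and UFM1 in sgUFM1. By the edgeR test described below, UFL1 had a log2 difference of -1.02 (adjusted p = 0.0017) in set 2 against the controls for sgUFL1. In set 1 against the same controls it had -0.45 (adjusted p = 0.13). Which naming is right was not tested. The 8 markers fixed for the line summed to 3790 to 5070 CPM per library. The 6 leukocyte markers summed to 2.2 to 4.31 CPM, of which CD14 held 2.07 to 4.19, with CD3E at 0 in every library. The 7 fibroblast and endothelial markers summed to 15.8 to 30.4 CPM. The 5 luminal genes (ESR1, PGR, ERBB2, GATA3 and FOXA1) summed to 67.5 to 103 CPM. Of this, ERBB2 held 40.5 to 71.8 and FOXA1 17 to 26.1. Library composition differed with the groups: counted transcripts had a mean GC content of 50.41% to 50.94% in set 2, 50.29% to 50.53% in set 1, 49.81% to 50.29% in sgUFM1 and 48.33% to 49.38% in the controls for sgUFL1. The share of mitochondrial counts was 4.51% to 4.76% in the controls for sgUFL1 and 3.12% to 4% in the other 9 libraries.

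The promoters of 4 members are shown because these genes mark the ends of the patterns described below: ASPM and CENPE had the highest values in the test of the difference between the guide effects, CDC20 the lowest among genes past the threshold, and MKI67 was higher in sgUFM1 than in either set named as its controls. Each sequence is the 250 bases before the RefSeq transcript start (GRCh38.p14), 5′ to 3′ on the gene's strand, with capitals marking the cell cycle homology region (TTTGAA or TTCGAA) and the CCAAT box, each searched on both strands.
ASPM, chr1:197146670-197146919, minus strand: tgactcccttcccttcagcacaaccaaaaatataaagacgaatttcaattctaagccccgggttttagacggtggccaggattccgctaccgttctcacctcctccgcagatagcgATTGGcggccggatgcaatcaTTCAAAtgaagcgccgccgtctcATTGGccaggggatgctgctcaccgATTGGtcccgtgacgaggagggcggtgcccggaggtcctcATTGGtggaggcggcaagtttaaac
CENPE, chr4:103198344-103198593, minus strand: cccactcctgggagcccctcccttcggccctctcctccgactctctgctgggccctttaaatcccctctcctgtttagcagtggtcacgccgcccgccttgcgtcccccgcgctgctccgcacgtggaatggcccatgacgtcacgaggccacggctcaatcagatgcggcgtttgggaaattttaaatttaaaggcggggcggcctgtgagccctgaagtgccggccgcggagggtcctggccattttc
MKI67, chr10:128126424-128126673, minus strand: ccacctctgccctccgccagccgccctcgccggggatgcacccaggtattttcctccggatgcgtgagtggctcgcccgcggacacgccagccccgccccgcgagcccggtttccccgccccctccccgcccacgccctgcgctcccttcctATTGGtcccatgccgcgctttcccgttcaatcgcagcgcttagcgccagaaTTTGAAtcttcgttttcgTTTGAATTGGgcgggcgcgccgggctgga
CDC20, chr1:43358731-43358980, plus strand: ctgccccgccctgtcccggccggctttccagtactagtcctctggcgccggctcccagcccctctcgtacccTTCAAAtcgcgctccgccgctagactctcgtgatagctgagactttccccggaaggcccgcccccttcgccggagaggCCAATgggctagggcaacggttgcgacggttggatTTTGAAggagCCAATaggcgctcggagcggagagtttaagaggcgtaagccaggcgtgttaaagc

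Counted from the transcript start, ASPM held a cell cycle homology region at -113 and CCAAT boxes at -134, -90, -65 and -25. MKI67 held homology regions at -47 and -29 and CCAAT boxes at -98 and -24, the last pair sharing a base in a single run of capitals. CDC20 held homology regions at -178 and -65 and CCAAT boxes at -100 and -55. In the CENPE window neither set of letters was found. A RefSeq window of 300 bases (250 before the start and 50 after it) was present for 32 of the 38 members. The homology region occurred in 26 of the 32 genes, or 69.0% of their 42 windows, against 16.4% of all 35116 windows of this length. The CCAAT box occurred in 26 of the 32 genes, or 71.4% of their windows, against 34.6% of all windows. Of 19 members with a window and a positive difference between the guide effects, 16 held the homology region and 14 the CCAAT box, of 12 without a call 9 and 11 did, and CDC20, the negative gene with a window, held both.

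Compared per length on the authors' FPKM scale, the most abundant members were CDC20, the activator of the anaphase-promoting complex, at a mean of 135 FPKM over 12 libraries (range 105 to 161), CCNB1 (cyclin B1) at 121 (97 to 136), and UBE2C, a ubiquitin-conjugating enzyme of that complex, at 112 (91.4 to 126). TPX2 followed at 103 and TOP2A at 94.6, and then AURKA at 52.5 (44.5 to 59.7). The lowest were CENPE at 6.69, HMMR at 6.2, NUSAP1 at 5.34 (4.08 to 6.41) and PRC1 at 0.308 (0.187 to 0.578). In this order 35 of 37 neighbouring pairs overlapped in their ranges. The exceptions were the steps from TOP2A to AURKA and from NUSAP1 to PRC1. PRC1 shares 57.6% of its exon bases with the annotated same-strand gene AC068831.7 (4.31 ± 0.56 to 6.4 ± 0.789 CPM per group), and NUSAP1 shares 62.2% with AC087721.2, which had 0 counts in all 12 libraries, so the counts of both members are uncertain. NCAPG shares 33.1% and SMC4 25.6% of exon bases with genes on the opposite strand, and use of strand in counting is not stated. No exon base was shared in 22 members.

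Summed over the 38 genes, the level was 5762 ± 228 CPM (SD, n = 3) in set 2, 6212 ± 139 in set 1, 6672 ± 217 in sgUFM1 and 7154 ± 541 in the controls for sgUFL1. The lowest control library (6661 CPM) lay within the sgUFM1 range of 6438 to 6868, while the highest set 2 library (6025) lay below every library outside set 2. The heat map of the 38 genes shows that the genes at its top were lowest in set 2 replicates 2 and 3 and highest in replicate 3 of the controls for sgUFL1, the library with the lowest GC content (48.33%).

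**Figure D1:**
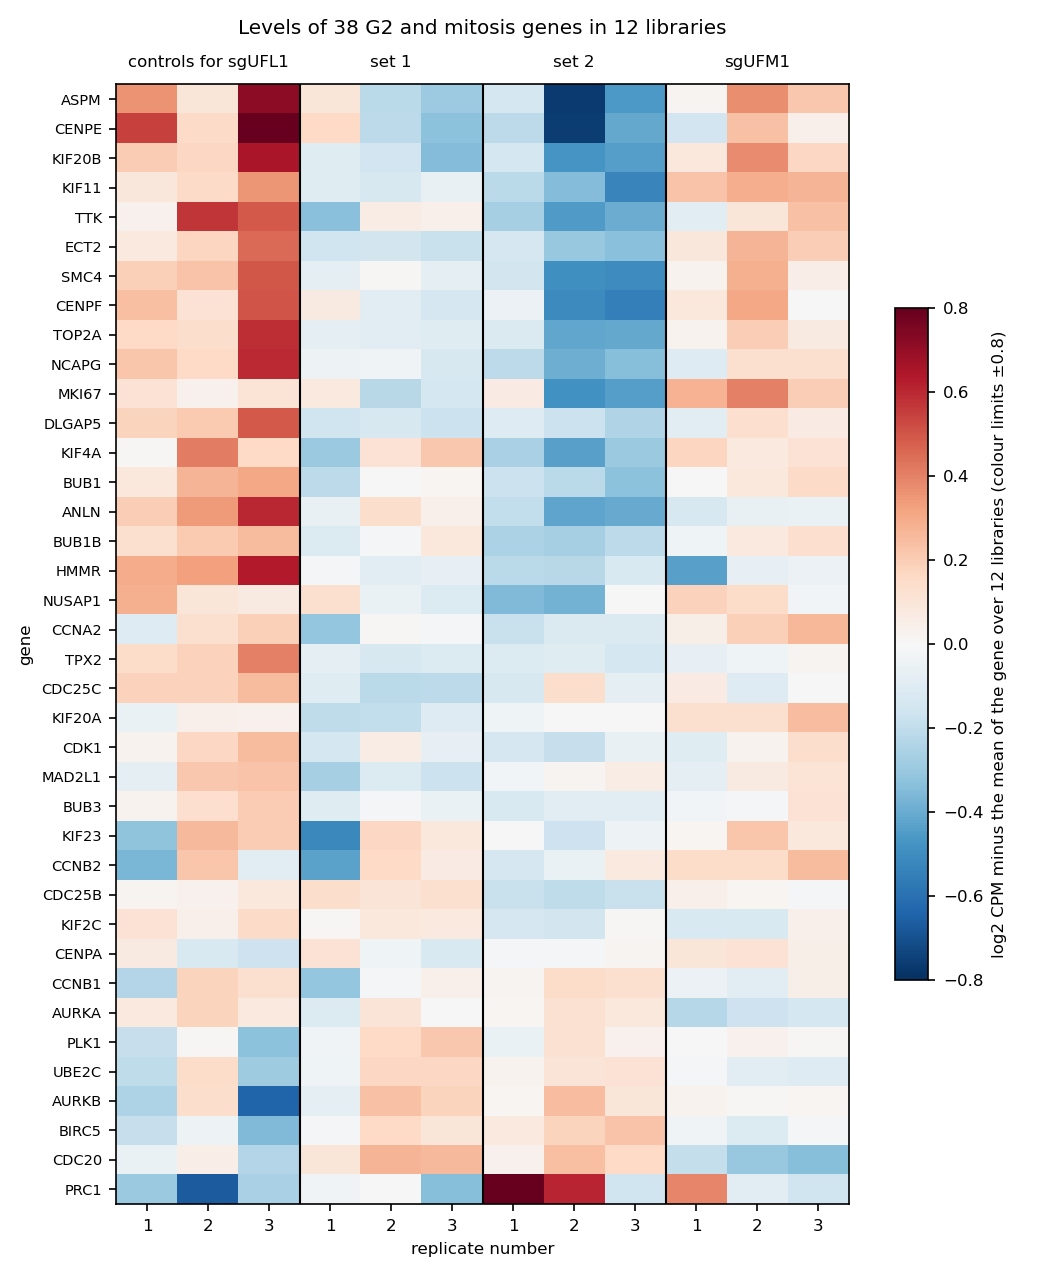
Levels of the 38 genes (rows, ordered by the difference between the guide effects) in the 12 libraries (columns, 3 replicates per group). Colour is log2 CPM minus the gene's mean over the 12 libraries; colours saturate at the limits given beside the scale. From ASPM down to HMMR, set 2 is mostly blue and the controls for sgUFL1 red, while CDC20 is red in sets 1 and 2 and blue in sgUFM1.

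Differences were tested on the counts with edgeR's quasi-likelihood test, adjusted over all genes tested (Benjamini-Hochberg), and called at an adjusted p under 0.05. Values are log2 differences with their standard error (SE). In sgUFM1 against the controls for sgUFL1, the comparison that both tables name alike, 2 of the 38 genes fell and none rose. HMMR, a spindle-associated hyaluronan receptor, fell by 0.60 on the log2 scale (SE 0.15, adjusted p = 0.026), and ANLN (anillin), a scaffold of the contractile ring, fell by 0.47 (SE 0.12, adjusted p = 0.026). Of all 15035 genes tested, 5.57% were called higher and 4.43% lower, and the share of members called was near this background. The median of the members was -0.11, against 0.00 over all genes, and 26 lay below 0. At an unadjusted p under 0.05, 7 members were lower (18.4%) and 0 higher, where 14.2% and 14.3% of all genes were. The lower share thus lay near the background, and the higher share lay below it. DESeq2 called 4 members lower, AURKA and CENPE besides the same pair, and 0 higher, against 6.66% and 7.63% of the 14449 genes it tested. These controls were made for the other guide, going by the titles, and the guide cannot be told apart from culture or preparation.

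HMMR (ENSG00000072571, chromosome 5, 163460203 to 163491945; GRCh38 with the GENCODE annotation here and below) measured 17.9, 23.1 and 23.4 CPM in sgUFM1, 23.9, 22.7 and 23.1 in set 1, 20.8, 20.7 and 22.2 in set 2, and 29.7, 30.3 and 37.5 in the sgUFL1 controls. The lowest control library lay above the highest sgUFM1 library, and sets 1 and 2 lay within or close to the sgUFM1 range. ANLN (ENSG00000011426, chromosome 7, 36389806 to 36453791) measured 266, 280 and 281 CPM in sgUFM1, 280, 321 and 300 in set 1, 254, 217 and 220 in set 2, and 334, 368 and 442 in the sgUFL1 controls. Here too the controls and sgUFM1 did not overlap, and set 2 was lower still. CENPE, the kinetochore motor that carries chromosomes to the metaphase plate, had the next lowest value at -0.53 (SE 0.17, adjusted p = 0.063). The highest values belonged to PRC1, a microtubule bundler of the midzone, at 0.46 (SE 0.35, adjusted p = 0.41), CCNB2 (cyclin B2) at 0.24 (SE 0.14, adjusted p = 0.27), and AURKB, the kinase of the chromosome passenger complex, at 0.23 (SE 0.16, adjusted p = 0.36). PRC1 (ENSG00000198901, chromosome 15, 90966038 to 90995629) measured 2.14, 1.54 and 1.46 CPM in sgUFM1, 1.6, 1.63 and 1.29 in set 1, 3.23, 2.49 and 1.46 in set 2, and 1.33, 1.03 and 1.36 in the sgUFL1 controls, so few counts lie behind its value. CCNB2 (ENSG00000157456, chromosome 15, 59105078 to 59125045) measured 82.3, 82.5 and 88.9 CPM in sgUFM1, 55.4, 83.1 and 77.8 in set 1, 67.8, 71.9 and 78.7 in set 2, and 57.7, 87 and 69.8 in the sgUFL1 controls. AURKB (ENSG00000178999, chromosome 17, 8204733 to 8210600) measured 97.2, 96.2 and 96.5 CPM in sgUFM1, 90.9, 112 and 108 in set 1, 96.3, 113 and 102 in set 2, and 80.3, 105 and 61.2 in the sgUFL1 controls. In both genes the controls for sgUFL1 spread more widely than sgUFM1 and enclosed or overlapped its range.

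Neither call of that comparison was stable. HMMR lost its call without replicate 1 (adjusted p = 0.053) or 3 (0.064) of the controls and without any single sgUFM1 library (0.068 to 0.16), and ANLN without any single sgUFM1 library (0.094 to 0.15). Without replicate 2 of the controls, 6 members were called lower and 3 higher. With offsets for the GC content and length of the genes, estimated per library, HMMR was -0.34 (adjusted p = 0.064) and ANLN -0.25 (adjusted p = 0.066). The same offsets gave 1 higher and 1 lower call, against 4.3% and 3.95% of all genes: KIF11 at 0.31 (adjusted p = 0.022) and CDC20 at -0.42 (adjusted p = 0.006).

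The effect of the sgUFM1 guide on its own controls depends on which libraries those are. Against set 2, the controls by the count table, 21 of the 38 genes rose and 3 fell, where 19.3% and 18.5% of 15083 genes did. Chromosome structure genes all rose (5 of 5), as did 4 of 7 spindle motors and assembly factors, 4 of 6 midzone and cytokinesis genes, 3 of 5 checkpoint genes, 3 of 6 genes of the cyclin-CDK engine and 2 of 3 centromere genes, and the fallen genes were CDC20, AURKA and BIRC5. The median was 0.21, against 0.01 over all genes, and in 24 members every sgUFM1 library lay above every set 2 library and in 4 below, where 23.5% and 23.2% of all genes did. Against set 1, the controls by the FPKM table, 5 members rose and 1 fell, where 4.57% and 5.15% of 14977 genes did. These were MKI67, KIF11, KIF20A, KIF20B and ECT2 (higher) and CDC20 (lower), and the median was 0.13, against -0.01.

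All 6 genes called against set 1 were also called in the same direction against set 2, and both comparisons use the same 3 sgUFM1 libraries. With the offsets all 6 kept their call against set 1. That gave 5 higher and 1 lower, where 4.34% of all genes were called higher and 3.54% lower. The share of calls kept among all genes was not computed for any comparison. With them, 19 of 24 calls against set 2 were kept, those of CENPE, NUSAP1, ANLN, DLGAP5 and NCAPG were lost and 5 were gained, giving 17 higher and 7 lower, against 16.1% and 16.7% of all genes. The calls against set 1 were sensitive to single libraries: without sgUFM1 replicate 2 or replicate 3 no member was called, without set 1 replicate 2 or 3 the higher calls were 2, and without set 1 replicate 1 there were 9 higher and 7 lower. Against set 2, leaving out its replicate 1 gave 5 lower calls.

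The effect of the sgUFL1 guide also depends on the naming. In set 2 against the controls for sgUFL1, which is sgUFL1 against its controls by the FPKM table, 18 members fell and 1 rose, where 18.4% of 15175 genes fell and 17.4% rose. The fallen genes included 4 of 5 chromosome structure genes, 5 of 7 spindle motors and assembly factors, 3 of 5 checkpoint genes, 3 of 6 midzone and cytokinesis genes, 2 of 3 centromere genes and CDK1. BIRC5 (survivin), the chromosome passenger, rose. The median was -0.33, against -0.03 over all genes. This comparison shares the set 2 libraries with that of sgUFM1 against set 2, and its controls with that of sgUFM1 against the controls for sgUFL1. Without replicate 2 of the controls there were 5 higher calls, and without replicate 1 or 3 of the controls or replicate 2 of set 2 there were 0. With the offsets, 2 members were lower and 1 higher, where 3.09% and 3.95% of all genes were, and 1 of the 19 calls was kept, that of KIF4A at -0.40 (adjusted p = 0.04). The gained calls were CDC25B at -0.65 and MAD2L1 at 0.39. CDK1 passed narrowly, at -0.29 (SE 0.11, adjusted p = 0.0499), and with the offsets its value was 0.30 (adjusted p = 0.066).

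In set 1 against the same controls, which is sgUFL1 against its controls by the count table, edgeR called 0 members in either direction, where 1.08% of 14996 genes were called higher and 0.02% lower. At an unadjusted p under 0.05, 17 members were lower and 3 higher, where 12.1% and 16% of all genes were. DESeq2 called 10 lower and 0 higher, against 5.61% and 12.6% of the genes it tested. The median was -0.17, against -0.01, and in 17 members all set 1 libraries lay below all controls and in 3 above, where 16.9% and 16.7% of all genes did. The lowest values belonged to CENPE at -0.67 (SE 0.20, adjusted p = 0.085), KIF20B at -0.54 (SE 0.15, adjusted p = 0.079) and ASPM at -0.53 (SE 0.17, adjusted p = 0.096). Without replicate 2 of the controls edgeR called 6 members lower and 1 higher.

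Set 1 against set 2 is sgUFL1 against the controls for sgUFM1 by the count table, and the reverse by the FPKM table. edgeR called 0 of the 38 genes, where 0.705% of 15033 genes were called higher in set 1 and 1.49% lower. At an unadjusted p under 0.05, 10 members were higher and 2 lower, where 9.71% and 10.3% of all genes were. DESeq2 called 2 higher and 0 lower, against 2.02% and 3.32% of the genes it tested. The pair was CDC25B, the phosphatase that starts CDK1 activation, at 0.30 (SE 0.07), and ANLN at 0.38 (SE 0.09). Without replicate 1 of set 1 there were 7 higher calls, and without replicate 1 of set 2 there were 2.

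**Figure D2:**
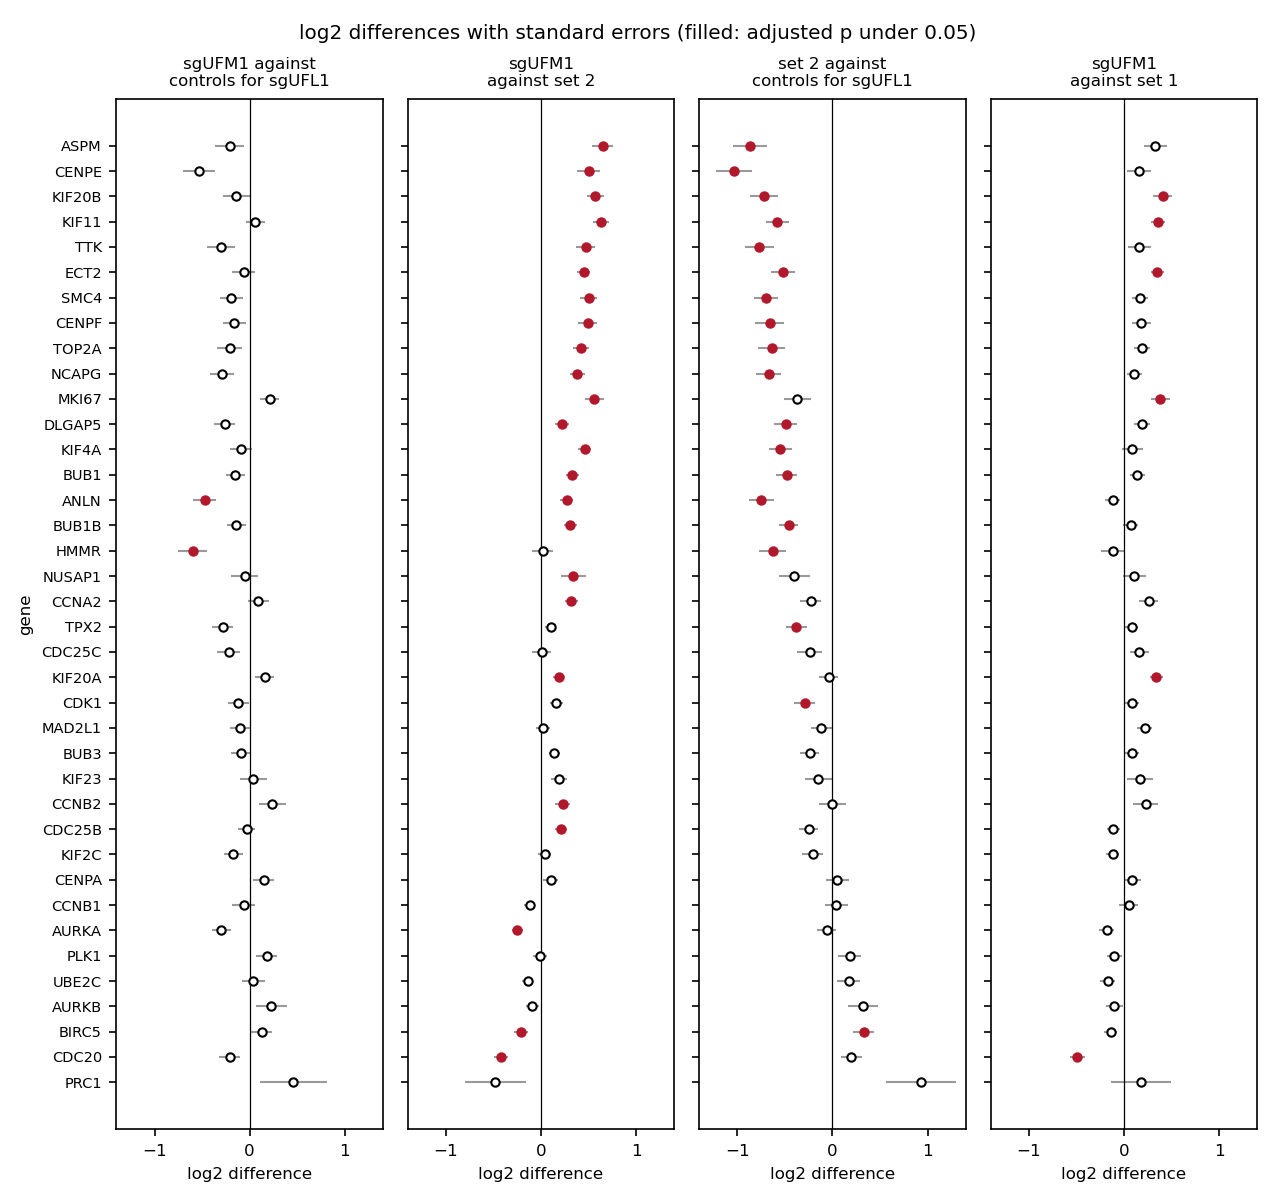
log2 differences (x axis) of the 38 genes (y axis, ordered by the difference between the guide effects) in 4 comparisons; bars are standard errors and filled points have an adjusted p under 0.05. Against set 2 most filled points lie right of 0 (21 of 24), in set 2 against the controls for sgUFL1 most lie left of it (18 of 19), and against set 1 the 6 filled points are KIF20B, KIF11, ECT2, MKI67, KIF20A and CDC20. Not shown is set 1 against the controls for sgUFL1, the sgUFL1 comparison by the count table, with 0 calls.

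The difference between the guide effects is the sgUFM1 effect minus the sgUFL1 effect, each against its own controls. It has the same value under both namings, since set 1 and set 2 enter it with the same sign. By the count table it takes sgUFM1 against set 2 and set 1 against the controls for sgUFL1. By the FPKM table it takes sgUFM1 against set 1 and set 2 against those controls. The values of sgUFM1 against set 2 and of set 2 against those controls, printed together for single genes below, come from opposite namings. They share the set 2 libraries and do not add up to the difference. The difference between the guide effects was positive in 22 of the 38 genes and negative in 2, where 17% of 15821 genes were positive and 17.9% negative. The median was 0.46, against 0.02 over all genes. All 5 chromosome structure genes, 4 of 5 checkpoint genes, 5 of 7 spindle motors and assembly factors, 4 of 6 midzone and cytokinesis genes, 2 of 3 centromere genes and 2 of 6 genes of the cyclin-CDK engine were positive, and CDC20 and BIRC5 negative. With the offsets, 4 were positive and 1 negative, where 3.41% and 4.51% of all genes were. KIF20A, KIF20B, MKI67 and BIRC5 kept their call, 4 of 24, and CDC25B gained a call. Without replicate 2 of the controls for sgUFL1, 5 were negative.

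Among the spindle motors and assembly factors, ASPM, a protein of the spindle poles, had the highest difference between the guide effects of all members. ASPM (ENSG00000066279, chromosome 1, 197084128 to 197146694) measured 113, 144 and 129 CPM in sgUFM1, 119, 95.7 and 90.8 in set 1, 101, 65.5 and 80.8 in set 2, and 143, 119 and 183 in the sgUFL1 controls. The controls for sgUFL1 and sgUFM1 overlapped, set 2 lay below both, and set 1 overlapped set 2 and sgUFM1. Its difference between the guide effects was 1.19 (SE 0.24, adjusted p = 0.0018). Taken singly, sgUFM1 against set 2 gave 0.65 (SE 0.11, adjusted p = 1.8e-04). Set 2 against the controls for sgUFL1, which belongs to the other naming, gave -0.87 (SE 0.18, adjusted p = 0.0034). With the offsets the 3 values were 0.44 (adjusted p = 0.056), 0.30 and -0.25. KIF11, the kinesin that pushes spindle poles apart, had the smallest p of the 38 genes in this test. KIF11 (ENSG00000138160, chromosome 10, 92593286 to 92655395) measured 155, 162 and 160 CPM in sgUFM1, 124, 121 and 127 in set 1, 114, 104 and 91.7 in set 2, and 141, 147 and 169 in the sgUFL1 controls. Every sgUFM1 library lay above every library of sets 1 and 2, and set 2 lay below set 1. The difference between the guide effects was 0.92 (SE 0.13, adjusted p = 2.5e-04), and sgUFM1 was higher by 0.63 (SE 0.08, adjusted p = 3.1e-06) than set 2 and by 0.36 (SE 0.07, adjusted p = 0.011) than set 1. With the offsets the first was 0.30 (adjusted p = 0.06). The call against set 1 was lost without sgUFM1 replicate 2 (adjusted p = 0.082) or 3 (0.066).

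Of the other members of this group, HMMR and DLGAP5, a microtubule-binding kinetochore-fibre protein, had differences between the guide effects of 0.50 and 0.65, and TPX2, the activator of Aurora A at the spindle, one of 0.44. With the offsets HMMR was -0.13 and DLGAP5 0.06. HMMR lost its call in this test in 8 of 12 single-library omissions, and the other 2 in none. NUSAP1, a spindle-assembly protein, rose against set 2 at 0.34 (SE 0.13, adjusted p = 0.038) and had 0.49 (SE 0.19, adjusted p = 0.055) in the difference between the guide effects. Its call against set 2 was lost in 4 of 6 single-library omissions (adjusted p = 0.1 to 0.16). KIF2C, a microtubule depolymerase, had between -0.21 and 0.14 across the 7 comparisons and was never called.

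Among the genes of the midzone and cytokinesis, KIF20B, KIF20A and ECT2 rose in sgUFM1 against both sets. KIF20B, a kinesin needed to complete cytokinesis (ENSG00000138182, chromosome 10, 89701610 to 89774939), measured 105, 129 and 111 CPM in sgUFM1, 92.7, 89.3 and 78.1 in set 1, 89.9, 71.4 and 73 in set 2, and 114, 111 and 156 in the sgUFL1 controls. All sgUFM1 values lay above all values of sets 1 and 2 and below the highest control for sgUFL1. It was higher in sgUFM1 by 0.57 (SE 0.09, adjusted p = 8.4e-05) than in set 2 and by 0.41 (SE 0.10, adjusted p = 0.025) than in set 1, and its difference between the guide effects was 1.11 (SE 0.19, adjusted p = 7.3e-04), or 0.33 (adjusted p = 0.049) with the offsets. KIF20A (ENSG00000112984, chromosome 5, 138178719 to 138187715), the kinesin that brings the passenger complex to the midzone, measured 202, 202 and 219 CPM in sgUFM1, 160, 161 and 172 in set 1, 180, 185 and 184 in set 2, and 178, 190 and 189 in the sgUFL1 controls. All sgUFM1 libraries lay above the other 9, and set 2 was close to the controls for sgUFL1. Its value was 0.34 (SE 0.07, adjusted p = 0.017) against set 1, 0.19 (SE 0.06, adjusted p = 0.021) against set 2 and 0.36 (SE 0.11, adjusted p = 0.017) in the difference between the guide effects, where the offsets left it at 0.35 (adjusted p = 0.016). Against set 2 KIF20A lost its call without replicate 2 or 3 of set 2 or of sgUFM1 (adjusted p = 0.052 to 0.1). Against set 1, KIF20A lost its call without sgUFM1 replicate 2 (0.089) or 3 (0.097) or set 1 replicate 2 (0.067), and KIF20B without sgUFM1 replicate 2 (0.15) or 3 (0.095) or set 1 replicate 3 (0.097).

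ECT2, the exchange factor that activates RhoA at the cleavage furrow (ENSG00000114346, chromosome 3, 172750682 to 172821474), measured 224, 254 and 241 CPM in sgUFM1, 189, 190 and 186 in set 1, 192, 171 and 167 in set 2, and 222, 237 and 289 in the sgUFL1 controls. Sets 1 and 2 lay close together, and both sgUFM1 and the controls for sgUFL1 lay above them. Against set 1 sgUFM1 was higher by 0.35 (SE 0.07, adjusted p = 0.016) and against set 2 by 0.45 (SE 0.07, adjusted p = 6.3e-05). Its difference between the guide effects was 0.85 (SE 0.14, adjusted p = 6.4e-04), and 0.20 (adjusted p = 0.15) with the offsets. The call against set 1 was lost without replicate 2 or 3 of either group (adjusted p = 0.052 to 0.12). ANLN differed otherwise: it was higher in sgUFM1 than in set 2 by 0.27 (SE 0.07, adjusted p = 0.0051), lower in set 2 than in the controls for sgUFL1 at -0.75 (SE 0.13, adjusted p = 0.0018), and at -0.12 (SE 0.08) against set 1. With the offsets its value against set 2 was 0.03 (adjusted p = 0.67). KIF23, the motor of the centralspindlin complex, and PRC1 were not called in any of the 7 comparisons.

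MKI67, which encodes the Ki-67 protein that coats mitotic chromosomes, was the only gene of chromosome structure called in sgUFM1 against set 1. MKI67 (ENSG00000148773, chromosome 10, 128096659 to 128126385) measured 624, 679 and 590 CPM in sgUFM1, 543, 440 and 466 in set 1, 539, 368 and 379 in set 2, and 556, 527 and 554 in the sgUFL1 controls. All sgUFM1 libraries lay above all other 9, and replicate 1 of set 2 lay far above its replicates 2 and 3. The value was 0.56 (SE 0.10, adjusted p = 2.4e-04) against set 2, 0.38 (SE 0.10, adjusted p = 0.032) against set 1 and 0.73 (SE 0.18, adjusted p = 0.0063) in the difference between the guide effects. Against the controls for sgUFL1 it was 0.21 (SE 0.10, adjusted p = 0.21). With the offsets the first 3 were 0.46, 0.32 and 0.55 and still called. The call against set 1 was lost without set 1 replicate 2 (adjusted p = 0.11) or 3 (0.11) and without any single sgUFM1 library (0.086 to 0.18).

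KIF4A, a chromosome-bound kinesin (ENSG00000090889, chromosome X, 70290090 to 70420832), measured 106, 99.5 and 102 CPM in sgUFM1, 76.7, 102 and 109 in set 1, 78.7, 69.7 and 76.7 in set 2, and 94.7, 125 and 105 in the sgUFL1 controls. Set 2 had the lowest mean and a narrow spread, while set 1 and the controls for sgUFL1 spread widely. sgUFM1 was higher than set 2 by 0.46 (SE 0.07, adjusted p = 7.6e-05), and set 2 lower than the controls for sgUFL1 at -0.55 (SE 0.12, adjusted p = 0.0056). SMC4, a core subunit of condensin (ENSG00000113810, chromosome 3, 160399274 to 160434962), measured 159, 190 and 162 CPM in sgUFM1, 148, 157 and 148 in set 1, 141, 111 and 110 in set 2, and 178, 183 and 220 in the sgUFL1 controls. All libraries of set 2 lay below all 9 others, replicates 2 and 3 furthest. Its values were 0.50 (SE 0.09, adjusted p = 2.2e-04) in sgUFM1 against set 2, -0.70 (SE 0.13, adjusted p = 0.0026) in set 2 against the controls for sgUFL1 and 0.85 (SE 0.16, adjusted p = 0.0012) in the difference between the guide effects. NCAPG, another condensin subunit (ENSG00000109805, chromosome 4, 17810902 to 17844862), measured 111, 130 and 130 CPM in sgUFM1, 116, 117 and 109 in set 1, 103, 90.8 and 93.9 in set 2, and 139, 133 and 180 in the sgUFL1 controls. Set 2 was again lowest, the difference between the guide effects was 0.77 (SE 0.16, adjusted p = 0.0022), and set 2 against the controls for sgUFL1 gave -0.67 (SE 0.13, adjusted p = 0.003). With the offsets the difference between the guide effects was 0.19 for SMC4, 0.16 for NCAPG and 0.18 for TOP2A, the topoisomerase that untangles sister chromatids, none of them past the threshold.

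At the centromere and kinetochore, CENPE (ENSG00000138778, chromosome 4, 103105806 to 103198409) measured 54.7, 71.6 and 62.5 CPM in sgUFM1, 67.8, 52.6 and 48.5 in set 1, 52.7, 35.9 and 45.8 in set 2, and 88.7, 67.7 and 116 in the sgUFL1 controls. Every library of set 2 lay below every control for sgUFL1, and set 2 and sgUFM1 did not overlap. Set 2 was lower than the controls at -1.04 (SE 0.19, adjusted p = 0.0021), the lowest value of any member in any comparison, and sgUFM1 was higher than set 2 by 0.50 (SE 0.12, adjusted p = 0.0021). The latter call was lost with the offsets, at 0.12 (adjusted p = 0.23), and in the fit over all 12 libraries, at 0.49 (adjusted p = 0.076). The difference between the guide effects was 1.18 (SE 0.26, adjusted p = 0.0033), and 0.39 (adjusted p = 0.14) with the offsets. CENPF, a large kinetochore protein, had 0.83 (SE 0.19, adjusted p = 0.0045) in the same test, while CENPA, the centromeric histone, had 0.03 (SE 0.13, adjusted p = 0.89) and was never called.

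Of the spindle checkpoint genes, TTK, the kinase that starts checkpoint signalling at kinetochores (ENSG00000112742, chromosome 6, 80003887 to 80042527), measured 36, 41 and 45.1 CPM in sgUFM1, 30.4, 39.8 and 39.3 in set 1, 31.8, 28 and 29.1 in set 2, and 39.2, 56.9 and 53.7 in the sgUFL1 controls. Replicate 1 of the controls for sgUFL1 lay within the sgUFM1 range, and set 2 lay below both groups. Set 2 against the controls for sgUFL1 gave -0.77 (SE 0.15, adjusted p = 0.0027), sgUFM1 against set 2 gave 0.47 (SE 0.10, adjusted p = 7.3e-04), and the difference between the guide effects was 0.91 (SE 0.20, adjusted p = 0.0035). The kinase BUB1 and the inhibitor of the anaphase-promoting complex BUB1B had differences between the guide effects of 0.61 (adjusted p = 0.0026) and 0.51 (adjusted p = 0.0044). With the offsets this difference was 0.31 for TTK (adjusted p = 0.33), 0.18 for BUB1 (0.34) and 0.21 for BUB1B (0.18). TTK in set 2 against the controls for sgUFL1 was then -0.26 (adjusted p = 0.24), and in sgUFM1 against set 2 it stayed called at 0.20 (0.034). BUB3, the partner of BUB1 and BUB1B, had a difference between the guide effects of 0.30 (adjusted p = 0.047), and -0.14 with the offsets. BUB3 lost that call in 10 of 12 single-library omissions. MAD2L1, which holds CDC20 in the checkpoint complex, had 0.32 (adjusted p = 0.067).

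CDC20 moved opposite to most members. CDC20 (ENSG00000117399, chromosome 1, 43358955 to 43363203) measured 240, 222 and 216 CPM in sgUFM1, 293, 331 and 328 in set 1, 281, 324 and 306 in set 2, and 264, 284 and 233 in the sgUFL1 controls. Every sgUFM1 library lay below every library of sets 1 and 2, and the controls for sgUFL1 overlapped sgUFM1 through replicate 3 and set 2 through replicate 2. sgUFM1 was lower than set 1 at -0.49 (SE 0.08, adjusted p = 0.0064) and than set 2 at -0.42 (SE 0.07, adjusted p = 5.6e-05). The difference between the guide effects was -0.71 (SE 0.13, adjusted p = 0.0012), or -0.18 (adjusted p = 0.19) with the offsets, while with them both comparisons of sgUFM1 with the sets stayed called (-0.38 and -0.21). The call against set 1 was lost without sgUFM1 replicate 2 (adjusted p = 0.066) or 3 (0.057). UBE2C, which works with the complex that CDC20 activates, had -0.36 (SE 0.15, adjusted p = 0.076) in the difference between the guide effects and was never called.

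BIRC5, the passenger complex subunit that brings Aurora B to the centromere (ENSG00000089685, chromosome 17, 78214186 to 78225636), measured 149, 141 and 151 CPM in sgUFM1, 151, 170 and 163 in set 1, 161, 172 and 178 in set 2, and 134, 148 and 119 in the sgUFL1 controls. The controls for sgUFL1 lay lowest and set 2 highest, with no overlap between them. Set 2 was higher than these controls by 0.33 (SE 0.11, adjusted p = 0.036), sgUFM1 lower than set 2 at -0.21 (SE 0.07, adjusted p = 0.017), and the difference between the guide effects was -0.49 (SE 0.13, adjusted p = 0.0094). The last was -0.34 (adjusted p = 0.032) with the offsets. The call of set 2 against the controls was lost without replicate 1 (adjusted p = 0.068) or 3 (0.073) of the controls or replicate 2 (0.13) or 3 (0.17) of set 2. The call of sgUFM1 against set 2 was lost without set 2 replicate 2 (0.058) or 3 (0.11) or sgUFM1 replicate 2 (0.11).

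Among the mitotic kinases, AURKA, the kinase of centrosomes and spindle poles (ENSG00000087586, chromosome 20, 56369389 to 56392337), measured 132, 138 and 140 CPM in sgUFM1, 143, 166 and 154 in set 1, 156, 168 and 164 in set 2, and 163, 175 and 163 in the sgUFL1 controls. Every sgUFM1 library lay below the other 9. sgUFM1 was lower than set 2 at -0.25 (SE 0.06, adjusted p = 0.0052), and the values against set 1 and the controls for sgUFL1 were -0.18 (SE 0.08, adjusted p = 0.17) and -0.30 (SE 0.10, adjusted p = 0.068). The difference between the guide effects, -0.14 (SE 0.12, adjusted p = 0.37), was not called. PLK1, which acts from mitotic entry to cytokinesis, and AURKB had -0.30 (adjusted p = 0.099) and -0.43 (adjusted p = 0.11) in that test and were called in no comparison.

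**Figure D3:**
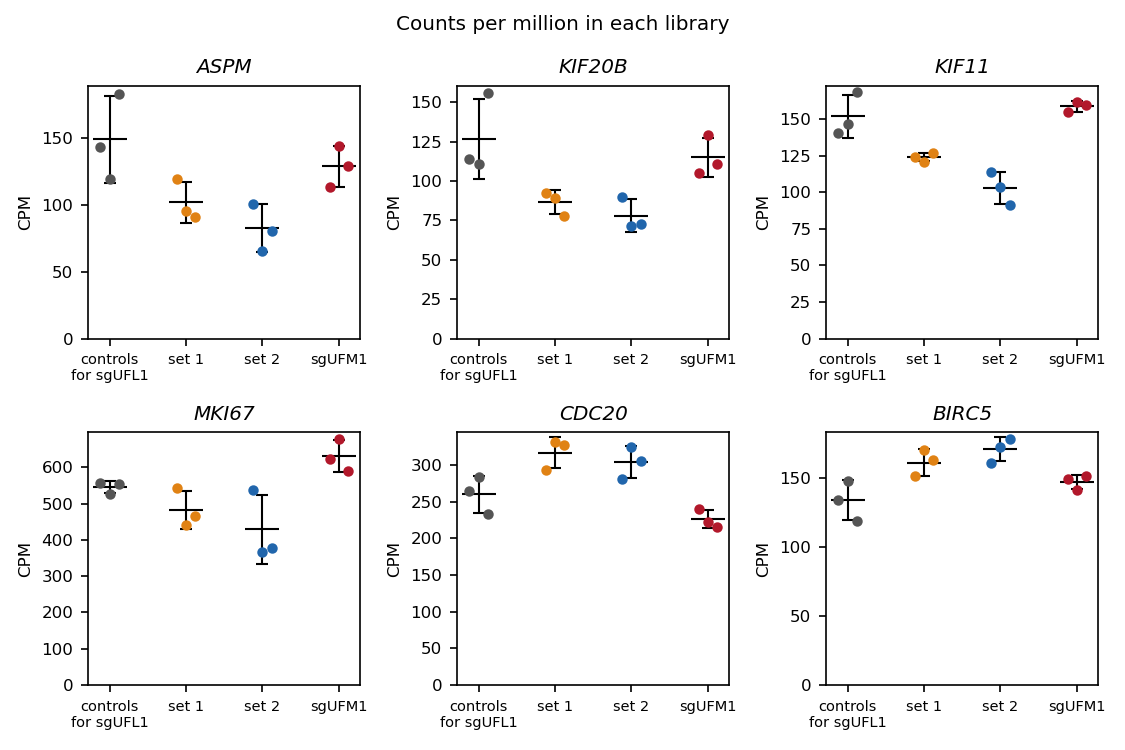
CPM of 6 members in each library (points, 3 per group), with the group mean and SD (bars, n = 3); the y axes start at 0. KIF11, KIF20B and MKI67 lie higher in sgUFM1 than in sets 1 and 2, CDC20 lies lower there, and BIRC5 is lowest in the controls for sgUFL1.

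In the cyclin-CDK engine, CCNA2 (cyclin A2) was higher in sgUFM1 than in set 2 by 0.32 (SE 0.07, adjusted p = 0.0015) and had 0.48 (SE 0.15, adjusted p = 0.021) in the difference between the guide effects. CDK1 had 0.35 (SE 0.13, adjusted p = 0.046) in that test, lost its call in 9 of 12 single-library omissions, and was -0.33 with the offsets. CCNB2 and CDC25B rose in sgUFM1 against set 2 at 0.23 (SE 0.08, adjusted p = 0.024) and 0.21 (SE 0.06, adjusted p = 0.012). CCNB2 lost this call in 4 of 6 single-library omissions (adjusted p = 0.057 to 0.11) and CDC25B in 3 (0.053 to 0.058). CDC25B, the member with the highest GC content (58.2%), had 0.64 (adjusted p = 0.005) in the difference between the guide effects with the offsets, and 0.13 without them. CCNB1 and CDC25C, another CDK1-activating phosphatase, were never called. In all, 28 members were called in at least 1 of the 7 comparisons, which share libraries, where 56.8% of the 14435 genes tested in all 7 were. The 10 members called in none were CCNB1, CDC25C, PLK1, AURKB, MAD2L1, CENPA, KIF23, KIF2C, PRC1 and UBE2C.

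The members' values moved with the GC content of their transcripts. The 38 genes had a median GC content of 43.3% (34.1% to 58.2%), against 48.8% over all genes tested, and 29 lay below that median. Among these 29, the difference between the guide effects was called positive in 21 and negative in 0, with a median of 0.60. Among the 9 others 1 was positive and 2 negative, with a median of -0.30. Across the 38 genes this difference and GC content had a Spearman correlation of -0.78 (Pearson -0.79), and across 15815 genes -0.70. Genes are not independent replicates, and the values share the same 12 libraries. The offsets remove each library's trend with GC content, whatever its source, so a weaker correlation with them was built in. It was -0.13 across the members. With gene length the correlation was 0.63 across the members and 0.23 across all genes. In set 2 against the controls for sgUFL1, 18 of the 29 genes of low GC content fell and 0 rose, and of the 9 others 1 rose and 0 fell. In sgUFM1 against set 1, the correlation with GC content across the members was -0.49, and all 6 calls stood with the offsets.

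**Figure D4:**
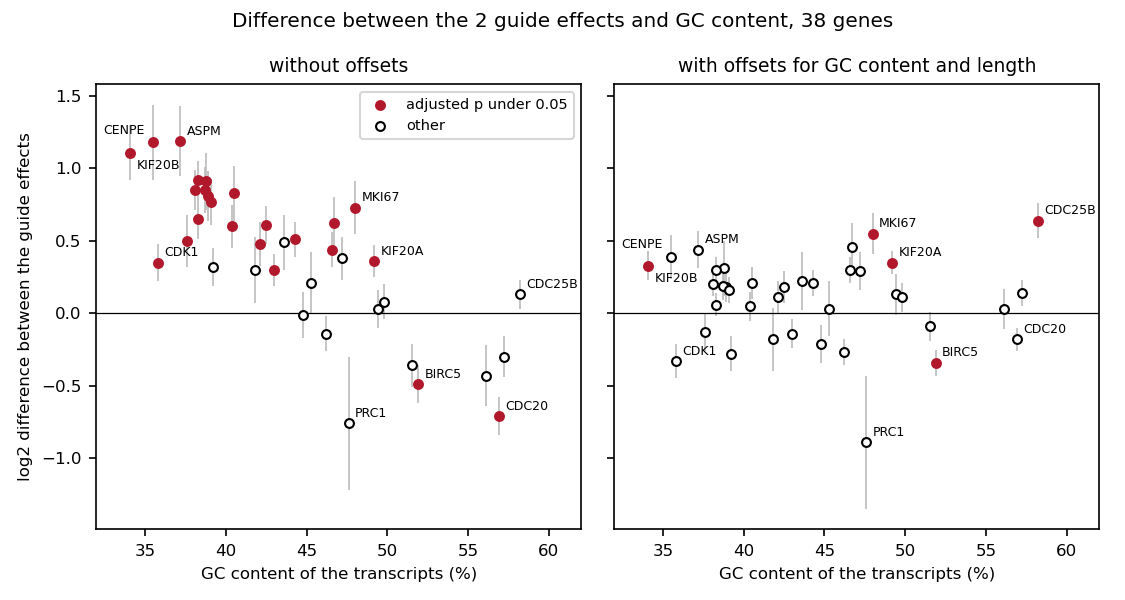
Difference between the guide effects (y axis, log2, with standard error) against the GC content of the transcripts (x axis, %) for the 38 genes, without and with offsets for GC content and length; filled points have an adjusted p under 0.05. Without offsets the values fall from KIF20B, CENPE and ASPM at low GC content to CDC20 at high GC content; with them KIF20A, KIF20B, MKI67, CDC25B and BIRC5 are filled.

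A wider list of 164 other genes of the G2 and M pathway was tested in the same fits. In the difference between the guide effects, 71 were positive (43.3%, against 17% of all genes) and 26 negative (15.9% against 17.9%), with a median of 0.30. With the offsets these were 13 (7.93% against 3.41%) and 5 (3.05% against 4.51%). In sgUFM1 against set 2, 67 rose (40.9% against 19.3%) and 18 fell (11% against 18.5%). Against set 1, 7 rose and 7 fell, or 4.27% each, near the 4.57% and 5.15% of all genes. Against the controls for sgUFL1, 2 rose (1.22% against 5.57%) and 8 fell (4.88% against 4.43%). In set 2 against the controls for sgUFL1, 74 fell (45.1% against 18.4%) and 16 rose (9.76% against 17.4%). Of 52 S phase genes, 18 were positive (34.6%) and 9 negative (17.3%) in the difference between the guide effects, with a median of 0.15, and 5 (9.62%) and 1 (1.92%) with the offsets. In sgUFM1 against set 2, 15 S phase genes rose (28.8%) and 8 fell (15.4%), and against set 1, 1 rose (1.92%) and 3 fell (5.77%), beside the shares of all genes given above.

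Of the transcription factors that act on these promoters, FOXM1 rose in sgUFM1 against set 2. FOXM1 measured 173, 177 and 175 CPM in sgUFM1, 160, 173 and 190 in set 1, 149, 156 and 156 in set 2, and 154, 173 and 114 in the sgUFL1 controls. It was higher in sgUFM1 than in set 2 by 0.20 (SE 0.06, adjusted p = 0.016) and had 0.01 (SE 0.08, adjusted p = 0.97) against set 1, with a difference between the guide effects of -0.05 (SE 0.17, adjusted p = 0.84). MYBL2, which encodes B-MYB, had -0.35 (SE 0.14, adjusted p = 0.061) in that test, and 0.35 with the offsets. Of the kinases that restrain CDK1, WEE1 had 0.24 (SE 0.15, adjusted p = 0.23) and PKMYT1 -1.11 (SE 0.25, adjusted p = 0.0032), the latter -0.09 with the offsets. CDKN1A (p21), the inhibitor of cyclin-dependent kinases induced by p53, was higher in sgUFM1 than in the controls for sgUFL1 by 0.79 (SE 0.15, adjusted p = 0.0084) and than in set 2 by 0.36 (SE 0.07, adjusted p = 3.9e-04), with 0.26 (SE 0.14, adjusted p = 0.26) against set 1. Against the controls for sgUFL1, set 2 was also higher by 0.43 (SE 0.15, adjusted p = 0.042), and set 1 stood at 0.55 (SE 0.21, adjusted p = 0.13). With the offsets sgUFM1, set 2 and set 1 stood at 0.58, -0.00 and 0.19 against these controls. PTTG1 (securin), the inhibitor of separase, had an adjusted p of 0.092 or more in all 7 comparisons.

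Among the wider list, GADD45A, a stress-induced inhibitor of CDK1, fell in sgUFM1 against both sets. GADD45A measured 27.7, 23.9 and 20.7 CPM in sgUFM1, 44.4, 39.4 and 44.1 in set 1, 43.8, 50.4 and 50.1 in set 2, and 37.4, 30.1 and 33.4 in the sgUFL1 controls. Every sgUFM1 library lay below the other 9, and the value was -0.82 (SE 0.12, adjusted p = 0.0033) against set 1 and -0.99 (SE 0.10, adjusted p = 3.5e-07) against set 2, or -0.72 and -0.78 with the offsets. HMGB3, a chromatin protein, was higher in sgUFM1 than in the controls for sgUFL1 by 0.39 (SE 0.11, adjusted p = 0.038), than in set 1 by 0.50 (SE 0.09, adjusted p = 0.0093) and than in set 2 by 0.76 (SE 0.06, adjusted p = 3.0e-08). CKAP2L, a spindle-associated protein, measured 70.6, 86.8 and 79.9 CPM in sgUFM1, 60.6, 56.5 and 58.3 in set 1, 50.2, 43.1 and 42.9 in set 2, and 72, 71.8 and 76.7 in the sgUFL1 controls. It rose in sgUFM1 against set 1 by 0.44 (SE 0.09, adjusted p = 0.014) and against set 2 by 0.81 (SE 0.09, adjusted p = 1.2e-06), and its difference between the guide effects was 1.13, or 0.63 with the offsets. STAG2, a cohesin subunit, fell in set 2 against the controls for sgUFL1 at -0.94 (SE 0.13, adjusted p = 6.8e-04) and rose in sgUFM1 against set 2 at 0.77 (SE 0.08, adjusted p = 7.5e-07).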

How the data were processed

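Total RNA of 12 MDA-MB-231 libraries was sequenced; RNA came from TRIzol and libraries followed Illumina protocols, per the labels' protocols. The deposited tables hold whole-number read counts per gene and FPKM values. The submitters' processing notes name featureCounts 2.0.0, STAR 2.7.7a, fastp 0.20.1 and the build GRCh38, without settings or strand. Total counts were 15342793 to 18033331 per library, and 3 libraries per group limit the precision.

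Groups follow the titles. The FPKM columns were matched to count columns by proportionality over 13300 genes (SD of the log2 ratio at most 8e-10 for the match and at least 0.239 for the next best), which showed the exchange of a pair of groups. The members, gene lists and alternatives were chosen with earlier results of these data known. Between replicates the chi-square was 2.41 to 34.88 per gene, more than counting error gives, and each was kept as its own library.

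Counts were tested with edgeR 4.0.16 in R 4.3.3 (quasi-likelihood test, two-sided, filterByExpr, TMM, Benjamini-Hochberg at 0.05 over all genes tested), with 6 libraries per comparison and 12 for the difference between the guide effects. Offsets were fitted per library by lowess (span 0.3), first on gene GC content and then on length. Other alternatives were RLE scaling, no filter, DESeq2 1.42.0, a fit over all 12 libraries, a replicate block and each library left out. The procedure was tested on simulated counts with a single dispersion and no trend with GC content or length. That test therefore does not cover such trends or outlying replicates. CPM in every library is printed for up to 6 members per direction and comparison with the smallest p, and for the 3 highest and 3 lowest of sgUFM1 against the controls for sgUFL1; of the wider list, FOXM1, MYBL2, WEE1, PKMYT1, CDKN1A and PTTG1 were always to be named. FOXM1, GADD45A and CKAP2L, and which other genes of the wider list to describe, were chosen after values were seen. FPKM was used only to compare levels between genes.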

Additional observations from a re-analysis of the deposited data

Results flagged for a closer look

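The 2 guide effects, each against its own controls, differed in 24 of the 38 genes by edgeR's test of the difference itself (adjusted p under 0.05), 22 positive and 2 negative, where 17% and 17.9% of all 15821 genes were. Among the genes of chromosome structure the difference was 0.85 for SMC4, 0.81 for TOP2A, 0.77 for NCAPG, 0.73 for MKI67 and 0.62 for KIF4A. Among the spindle motors and assembly factors it was 1.19 for ASPM, 0.92 for KIF11, 0.65 for DLGAP5, 0.50 for HMMR and 0.44 for TPX2. In the midzone and cytokinesis genes it was 1.11 for KIF20B, 0.85 for ECT2, 0.60 for ANLN and 0.36 for KIF20A. TTK stood at 0.91, BUB1 at 0.61, BUB1B at 0.51 and BUB3 at 0.30 in the spindle checkpoint, and CENPE at 1.18 and CENPF at 0.83 at the kinetochore. CCNA2 stood at 0.48 and CDK1 at 0.35. The negative values were those of CDC20 at -0.71 and BIRC5 at -0.49. The mean GC content of the libraries moved with these values, being lowest in the controls for sgUFL1 (48.33% to 49.38%) and highest in set 2 (50.41% to 50.94%). With offsets for GC content and length 4 of these 24 calls were kept. The share of calls kept among all genes was not computed. Of all genes, 3.41% were called positive and 4.51% negative with the offsets.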

How the results depend on the processing

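The offsets act on GC content and length together, and DESeq2 brings its own scaling and choice of genes to adjust over. Of the 75 member calls, 74 stood with RLE scaling, 74 with DESeq2, 69 without the filter and 70 with the replicate block, 40 of 51 in the fit over all 12 libraries, and 502 of 594 values with 1 library left out, none of them reversed. With the GC and length offsets 30 stood, 38 lost the call and 7 changed sign: DLGAP5 at -0.04 in sgUFM1 against set 2, CDK1 at 0.30, ECT2 at 0.04 and DLGAP5 at 0.03 in set 2 against the controls for sgUFL1, and CDK1 at -0.33, BUB3 at -0.14 and HMMR at -0.13 in the difference between the guide effects. The cause was not tested.

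For sgUFM1 against the controls for sgUFL1 (0 higher, 2 lower), the offsets gave 1 and 1, and DESeq2 and the 12-library fit 4 lower each. For sgUFM1 against set 2 (21 and 3) the offsets gave 17 and 7, the replicate block 18 higher, and the 12-library fit 14 and 2. That fit lost the calls of CCNB2, CDC25B, CENPE, KIF20A, NUSAP1, ANLN, DLGAP5 and BIRC5 (adjusted p = 0.058 to 0.33). For set 1 against the controls for sgUFL1 (0 and 0) lower calls were 4 without the filter, 10 with DESeq2 and 16 in the 12-library fit, which also gave 3 higher. For sgUFM1 against set 1 the 12-library fit gave 2 higher. For set 2 against the controls for sgUFL1 (1 and 18) the 12-library fit gave 2 higher and the offsets 2 lower. For set 1 against set 2 (0 and 0) higher calls were 4 without the filter, 2 with DESeq2, 1 in the 12-library fit and 1 with the offsets, which also gave 1 lower. In the difference between the guide effects the offsets gave 4 positive and 1 negative.

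With single libraries left out, higher and lower calls ranged from 0 to 3 and 0 to 6 for sgUFM1 against the controls for sgUFL1, 16 to 22 and 2 to 5 against set 2, 0 to 9 and 0 to 7 against set 1, 0 to 1 and 0 to 6 for set 1 against the controls for sgUFL1, 0 to 5 and 13 to 21 for set 2 against them, 0 to 7 and 0 to 0 for set 1 against set 2, and 19 to 24 and 2 to 5 in the difference between the guide effects. Same-numbered libraries did not deviate together in every pair (correlations from -0.21 to 0.38). For set 1 with the controls for sgUFL1 the correlations were 0.37, 0.38 and -0.21 for replicates 1, 2 and 3. With 3 libraries per group these values cannot decide whether the numbers pair the samples. The replicate block gave 2 higher calls for set 2 against the controls for sgUFL1 and 3 for set 1 against set 2. The 3 libraries per group and the GC differences between groups limit what these comparisons resolve.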
